A study of Homo sapiens with 8 samples.

Results

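The peak lists for G3BP1 in HEK293T cells held many peaks laid end to end. Among these, 1 peak begins at the nucleotide right after the last one of its neighbour. A run here is a set of at least 2 peaks of 1 list that abut in this way on the same chromosome and strand, and its peaks are called pieces. The runs were chosen by the peak coordinates alone, separately in the list from untreated cells (Ctrl) and in the list from PDS-treated cells. They took in 1475 of all 4346 peaks: 289 of 1421 Ctrl peaks, which formed 131 runs, and 1186 of 2925 PDS peaks, which formed 493 runs. Since coordinates, fold and p of a peak come from the same immunoprecipitation (IP) against input, everything that compares run peaks with other peaks of the same list is given as a description, without a test.

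HEK293T is an established line of human embryonic kidney cells. The 8 libraries were seCLIP libraries in 4 groups of 2 replicates: G3BP1 IP from untreated cells, their input made without the antibody, G3BP1 IP from cells treated with PDS (20 µM, 12 h, then crosslinked), and the input of those cells. The title of the study concerns the binding of G3BP1 to guanine quadruplexes of mRNAs; the labels do not spell out PDS, a short form used elsewhere for pyridostatin, a quadruplex-stabilising compound. The deposited data hold 1 peak list per condition, each combining both replicates, so no value below has a spread between replicates. Nothing in the labels says whether the replicates were separate cultures. Coordinates are hg19, counted from 1; genes and transcript parts were not assigned and the cell line was not checked by marker genes, because no hg19 annotation was used here.

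G3BP1 is an RNA-binding protein that nucleates stress granules, the cytoplasmic bodies in which untranslated mRNAs gather under stress. In seCLIP, RNA crosslinked to the protein by ultraviolet light is recovered and read from the point of crosslinking, so a stretch of RNA with crosslinks spread along it gives reads that start at many neighbouring positions. A guanine quadruplex is a stack of guanine tetrads folded from a G-rich stretch of RNA or DNA. Peak callers that divide a broad pile of reads into summits report 1 stretch as several adjoining peaks; whether that happened here was not tested, as the caller is not given in the sources used.

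Exact abutment was common and near misses were few. A gap of 0 nt separated 158 neighbouring pairs of Ctrl peaks and 693 pairs of PDS peaks. Gaps of 1 to 10 nt together separated 25 Ctrl and 100 PDS pairs, gaps of 11 to 20 nt separated 22 and 32, and gaps of 21 to 30 nt separated 19 and 18. Peaks of 1 list overlapped in 0 pairs in either list. Just outside the rule, a gap of 1 nt separated 6 Ctrl and 23 PDS pairs; the median log2 fold enrichment of IP over input of these peaks was 3.67 in Ctrl and 3.89 in PDS, and their median width was 44.5 nt and 46.5 nt. Of them, 1 of 12 Ctrl peaks and 17 of 46 PDS peaks also abutted a further peak and so lay in a run.

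**Figure D1:**
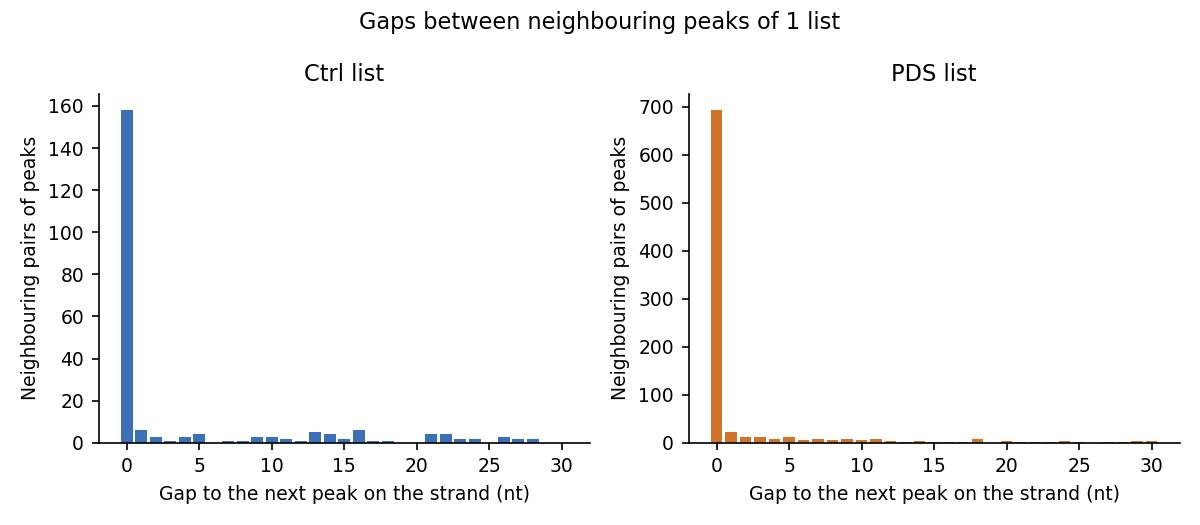
Number of neighbouring pairs of peaks (y axis) at each gap from 0 to 30 nt on the same strand (x axis), for the Ctrl list (left) and the PDS list (right). The bar at 0 nt holds 158 Ctrl and 693 PDS pairs, against 25 and 100 pairs for all gaps from 1 to 10 nt.

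The share of peaks in runs was 20.3% in the Ctrl list (exact 95% binomial interval 18.3 to 22.5%) and 40.5% in the PDS list (38.8 to 42.4%). These intervals, like those below, cover counting error only, and pieces of 1 run are not independent. Against Ctrl, the PDS list held 2.06 times the peaks, but 3.76 times as many runs and 4.10 times as many peaks in runs, whereas peaks outside runs were 1.54 times as many. Runs covered 16784 nt in Ctrl, 14.9% of the bound length, and 55425 nt in PDS, 28.2% of it. With 1 combined list per condition and unknown read depth, the difference has no replicate check. Cut to its 1421 peaks with the highest log2 fold, the number in the Ctrl list, the PDS list held 254 runs with 44.1% of its peaks. This cut kept the most enriched PDS peaks and left the Ctrl list whole. Since the share in runs was larger in higher classes of fold, it does not show the effect of list length alone.

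Most runs were pairs. The Ctrl list held 112 runs of 2 pieces, 13 of 3, 4 of 4 and 2 of 5. The PDS list held 365 runs of 2 pieces, 78 of 3, 34 of 4, 11 of 5, 4 of 6 and 1 of 7. Runs of 3 or more pieces thus made up 14.5% of Ctrl runs (19 of 131) and 26.0% of PDS runs (128 of 493).

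Pieces were narrow, but joined runs were wider than a usual peak. The median piece was 57 nt wide in Ctrl (quartiles 28 and 83 nt) and 41 nt in PDS (18 and 68 nt), against 78 nt and 77 nt for peaks outside runs. Joined, a run had a median length of 115 nt in Ctrl (range 10 to 393 nt) and 99 nt in PDS (range 8 to 470 nt). Pieces under 10 nt numbered 25 in Ctrl (8.65% of run peaks) and 175 in PDS (14.8%). Outside runs 13 Ctrl and 50 PDS peaks were that short, 1.15% and 2.88%. Of all peaks under 10 nt, 65.8% of Ctrl and 77.8% of PDS peaks lay in runs, and the share was lower in each wider class, down to 12.7% and 19.0% of peaks of 80 nt or more.

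Run peaks were the more enriched ones in each list. Their median log2 fold was 3.79 in Ctrl (quartiles 3.46 and 4.20) against 3.47 for peaks outside runs (3.21 and 3.83). In PDS it was 3.81 (3.42 and 4.33) against 3.47. A log2 fold of at least 4 was reached by 22.0% of all Ctrl peaks and by 36.3% of Ctrl run peaks, and by 27.6% of all PDS peaks and 39.6% of PDS run peaks. The median −log10 p was 19.8 in runs and 10.7 outside in Ctrl, and 25.4 and 13.9 in PDS. Of the peaks with a −log10 p of 400, which stands in for values too large to be given, 7 of 8 in Ctrl and 63 of 82 in PDS were pieces of runs.

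The share of peaks in runs was larger in every higher class of fold, in both lists. In Ctrl it went from 10.2% of the peaks in the lowest class of log2 fold, just above 3 (38 of 371) to 47.4% of those at 5 or more (18 of 38). In PDS it went from 23.4% (162 of 693) to 66.7% (70 of 105). In all 6 classes the PDS share was above the Ctrl share, with intervals that overlapped in the highest class. By −log10 p, the shares under 8 were 5.33% in Ctrl and 9.22% in PDS, and at 8 to 12 they were 11.9% and 22.5%. At 12 to 20 the shares were 23.4% in Ctrl and 32.8% in PDS, at 20 to 30 they were 28.6% and 50.6%, and at 30 to 50 they were 47.6% and 64.5%. From 50 up to the highest value below 400 they were 67.6% and 74.0%. At 400 the order turned, with 87.5% in Ctrl (7 of 8) and 76.8% in PDS. The intervals of the lists overlapped in the lowest and in both of the highest −log10 p classes.

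**Figure D2:**
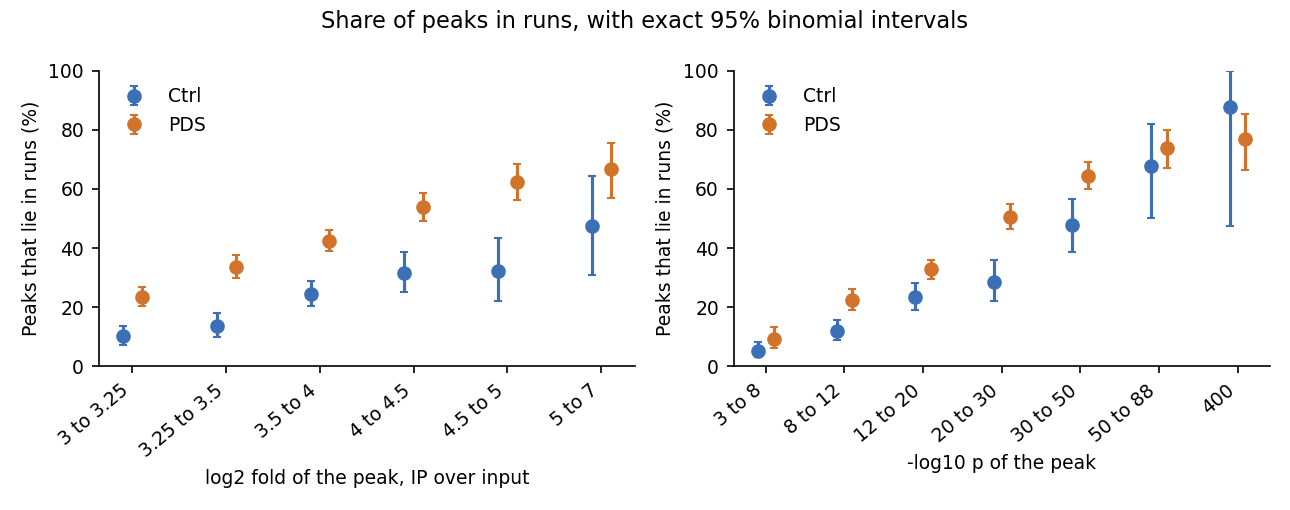
Percentage of peaks that lie in runs (y axis) by class of log2 fold (left) and of −log10 p (right) for the Ctrl and PDS lists; points are shares and bars exact 95% binomial intervals. The PDS points lie above the Ctrl points in each class of fold, from 23.4% against 10.2% to 66.7% against 47.4%, whereas at a −log10 p of 400 the Ctrl point, at 87.5% of 8 peaks, lies above the PDS point at 76.8%.

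Neighbouring pieces of a run usually differed modestly in enrichment. The log2 fold stepped by a median of 0.34 between neighbours in Ctrl (quartiles 0.19 and 0.63, 158 steps) and 0.24 in PDS (0.11 and 0.44, 693 steps). Steps over 1 were 9 in Ctrl (5.70%) and 17 in PDS (2.45%). Steps under 0.1 were 27 in Ctrl (17.1%) and 154 in PDS (22.2%). Toward the 3′ end of the RNA the fold was higher in 86 and lower in 67 Ctrl steps, and higher in 318 and lower in 375 PDS steps. The narrower of both neighbours was the more enriched in 67 of 156 Ctrl pairs and 328 of 686 PDS pairs of unequal width.

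In 5 Ctrl pairs both pieces carried the same log2 fold and the same −log10 p to the last deposited digit; the PDS list held 0 such pairs. They lay at chr11:17249839-17249901 (plus strand, log2 fold 3.47), chr17:8076891-8076908 (minus strand, 3.75) and chr19:31039209-31039239 (plus strand, 3.53). The others lay at chr20:30283552-30283576 (plus strand, log2 fold 4.18) and chr5:149246771-149246802 (minus strand, 3.03). In 4 of these 5 pairs the 5′ piece was 19 nt wide.

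In longer runs the place of the summit varied. Among the 13 Ctrl runs of 3 pieces the most enriched piece was the 3′ one in 9, the middle one in 3 and the 5′ one in 1. Among the 78 PDS runs of 3 it was the 5′ one in 32, the middle one in 22 and the 3′ one in 24. Runs of 2 pieces had the higher piece at the 5′ end in 56 of 112 Ctrl runs and in 205 of 365 PDS runs. In runs of 3 or more, the pieces at the ends had a median −log10 p of 29.7 in Ctrl and 28.5 in PDS, and the pieces between them 39.8 and 39.5; their median log2 fold was 3.89 at the ends and 3.85 between in Ctrl, and 3.94 and 4.03 in PDS. The 5′ piece was the narrowest by median in runs of 4, at 7.5 nt in Ctrl and 14.5 nt in PDS, and in the 11 PDS runs of 5, at 7 nt. This was not so in every class. In runs of 3 it was the narrowest in Ctrl, at 28 nt, but in PDS the middle piece was, at 32 nt against 38.5 nt. In the 2 Ctrl runs of 5 the second piece was the narrowest, at 54.5 nt.

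The longest run in either list lay at the same place in both: chr7:2394564-2394956 in Ctrl (393 nt) and chr7:2394519-2394988 in PDS (470 nt), on the plus strand, with 5 pieces in each. The Ctrl pieces had log2 folds of 3.39, 4.17, 5.19, 3.67 and 3.03 from 5′ to 3′, a sharp summit in the middle piece with the largest step of the Ctrl list, 1.52, behind it. The PDS pieces had log2 folds of 3.83, 3.89, 4.02, 3.98 and 3.63, a flat profile whose highest piece was also the middle one. The Ctrl summit, from 2394704 to 2394783, lay inside the PDS piece from 2394700 to 2394786.

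The other Ctrl run of 5 pieces lay at chrX:112022370-112022755 (minus strand). Its log2 folds were 4.17, 3.79, 4.97, 5.50 and 5.56 from 5′ to 3′, highest in its 3′ piece. It met 8 PDS pieces of 2 runs, with log2 folds between 3.72 and 5.20. The PDS run at its 3′ end, from 112022284 to 112022531, had 5 pieces with log2 folds of 4.84, 4.79, 4.32, 3.83 and 4.17, lowest in the fourth piece.

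The PDS run with most pieces lay at chr2:54856126-54856420 (plus strand). Its 7 pieces had log2 folds of 5.50, 5.79, 5.65, 5.13, 5.34, 5.20 and 5.10, all above 5. The Ctrl list had 2 pieces there, from 54856127 to 54856222 and from 54856223 to 54856368, with log2 folds of 3.82 and 3.44. Further along the same strand lay the 2 PDS runs with the highest log2 folds. One of 2 pieces, from 54880802 to 54880985, had log2 folds of 6.31 and 5.34 and met 2 Ctrl pieces of 4.92 and 5.15. Another, from 54873065 to 54873132, had 6.07 and 5.72 over 1 Ctrl peak of 4.14. A run of 5 pieces, from 54884987 to 54885182, had 5.06, 5.02, 5.59, 5.02 and 4.38 over 2 Ctrl pieces of 3.49 and 3.12. In all 4 runs the highest PDS piece was above the highest Ctrl piece. The runs were picked in the PDS list for most pieces or the highest log2 fold, a choice that favours higher values in PDS.

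A pair of 6-piece PDS runs lay close together on the minus strand of chromosome 8. The run from 144997967 to 144998171 climbed steadily from 5′ to 3′, with log2 folds of 4.41, 4.57, 4.68, 4.91, 5.12 and 5.25, and 5 of its pieces had a −log10 p of 400. The Ctrl list had 1 undivided peak there, from 144997971 to 144998049, with a log2 fold of 3.10. The run from 144998700 to 144998954 had 4.67, 5.03, 5.11, 4.70, 4.69 and 4.87 over 3 separate Ctrl peaks with log2 folds of 3.52 to 4.10. The other 6-piece runs met no Ctrl peak. One, at chr5:176894482-176894628 (minus strand), had log2 folds of 4.08, 4.01, 3.73, 3.89, 4.10 and 3.49. The other, at chr10:120802070-120802284 (minus strand), had 3.32, 3.32, 3.32, 3.18, 3.88 and 3.65.

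The place of the summit varied among PDS runs of 5 pieces too. At chr6:151672555-151672829 (plus strand) the log2 folds were 3.73, 4.81, 5.24, 4.46 and 4.33, over 1 Ctrl peak of 3.03 that spanned 172 nt. At chrX:153593189-153593325 (minus strand) they were 4.95, 5.42, 5.23, 4.38 and 4.58, over 3 Ctrl peaks of 3.48 to 4.48. At chr12:6690210-6690339 (minus strand) they were 4.89, 4.40, 4.63, 4.83 and 4.78, highest in the first piece, over 1 Ctrl peak of 3.97.

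**Figure D3:**
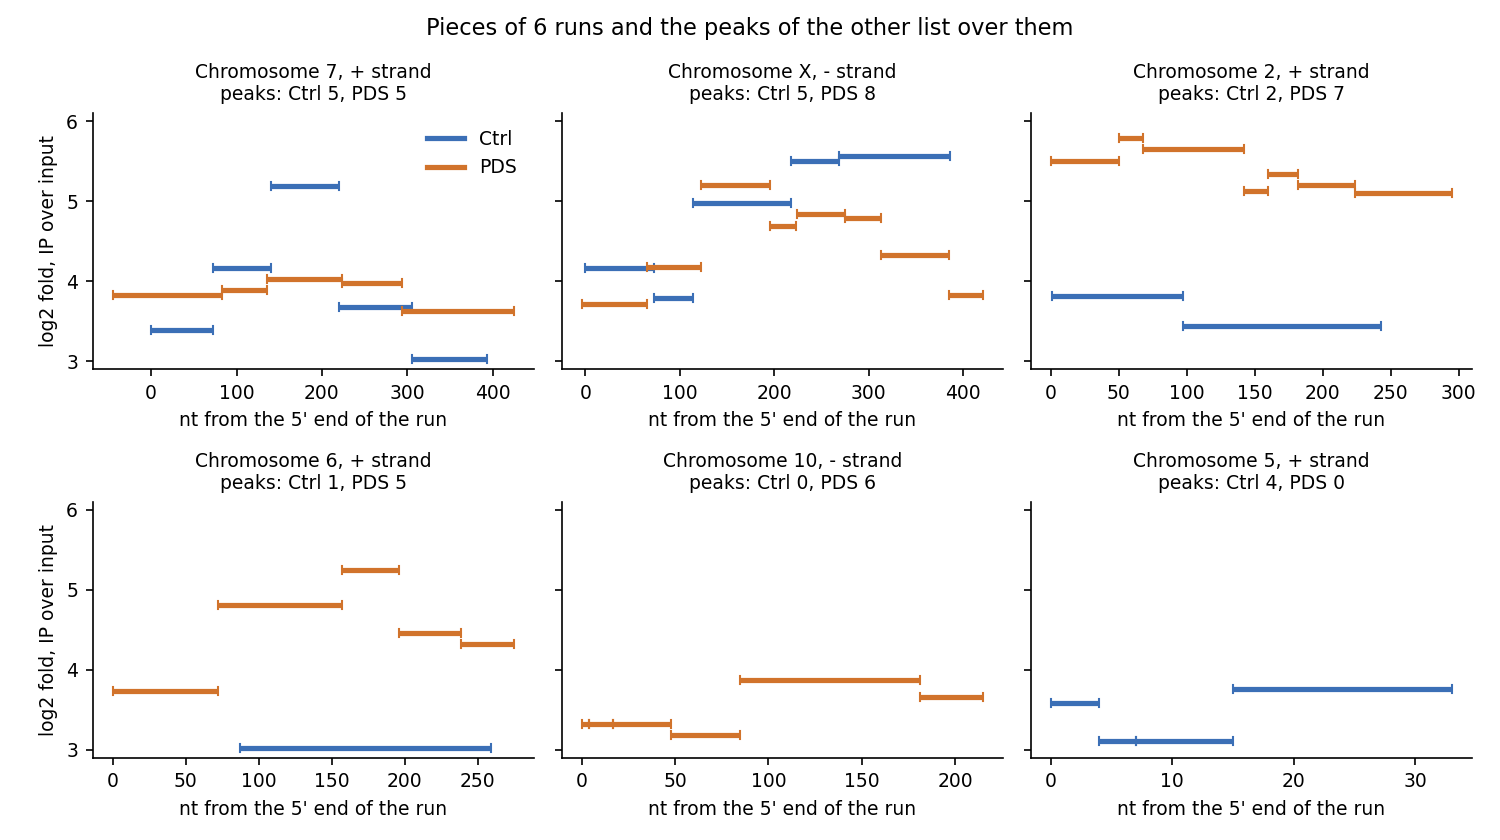
Peaks of 6 runs as horizontal bars: log2 fold of IP over input (y axis) against distance in nt from the 5′ end of the run (x axis), for Ctrl and PDS, with ticks at the peak borders; x scales differ between panels. The chromosome 7 run has 5 pieces in both lists with a Ctrl summit of 5.19 over a flat PDS profile up to 4.02, the chromosome 10 run met no Ctrl peak and the chromosome 5 run no PDS peak.

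The 2 Ctrl runs with the highest log2 folds were both under 40 nt long. The run at chr8:99057736-99057772 (minus strand) had log2 folds of 6.21, 6.26 and 6.47 in pieces of 15, 20 and 2 nt. Close by, the run at chr8:99057602-99057628 had 6.26 and 6.27 in pieces of 5 and 22 nt. PDS runs lay over both, with log2 folds of 5.49 and 5.48 over the first and 5.26 and 4.85 over the second, below the Ctrl values. Both Ctrl runs were picked for their high Ctrl log2 fold, a choice that favours higher values in Ctrl. On the plus strand of chromosome 3 the Ctrl run from 184052675 to 184052915 had 4.18, 5.45 and 5.53, and PDS pieces there reached 5.43.

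The 4 Ctrl runs of 4 pieces were between 33 and 101 nt long. At chr17:8076860-8076908 (minus strand), 49 nt carried log2 folds of 3.75, 3.75, 3.81 and 3.57, and the PDS list had 2 separate peaks of 3.15 there. At chr14:103988168-103988238 (minus strand) they were 3.24, 3.44, 3.78 and 3.54, over 1 PDS peak of 3.58. At chr19:49119982-49120082 (minus strand) they were 4.08, 3.85, 3.47 and 3.73, below the 1 PDS peak of 4.93. At chr5:138614520-138614552 (plus strand), 33 nt carried 3.58, 3.11, 3.11 and 3.76, and the stretch around it held 0 PDS peaks.

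Some runs held a large step between neighbours. At chr2:54853129-54853258 (plus strand) the log2 fold went from 5.46 in the first piece to 3.97 in the next, a step of 1.49, and the Ctrl list had 1 peak of 4.65 over the first piece and the start of the next. At chr16:27499627-27499721 (minus strand) it went from 5.29 to 3.82, with no Ctrl peak there. In Ctrl, steps over 1 included 5.11 to 3.92 at chr2:217498471-217498617 (plus strand), which met 1 PDS peak of 4.97, and 3.35 to 4.51 at chr3:58109085-58109219 (plus strand), which met none.

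Whether the bound stretches that form runs in 1 condition are also bound in the other was read from the other list, whose libraries played no part in choosing the runs. Of the 131 Ctrl runs, 97 met a PDS peak on the same strand by at least 1 nt (74.0%, exact 95% interval 65.7 to 81.3%): 60 met a PDS run and 37 met only undivided PDS peaks. Of the 493 PDS runs, 206 met a Ctrl peak (41.8%, 37.4 to 46.3%): 68 met a Ctrl run and 138 only undivided Ctrl peaks. Counted by peak, 72.0% of Ctrl run pieces met a PDS peak, against 51.5% of all Ctrl peaks and 46.3% of those outside runs. For PDS it was 39.0% of run pieces against 30.6% of all peaks and 24.8% outside runs. These shares by peak do not count separate stretches, since 1 peak of the other list can meet several pieces of a run.

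A longer stretch has more room to meet a peak, so runs were set beside undivided peaks of like length. At 150 nt or more, 81.4% of 43 Ctrl runs and 51.2% of 82 undivided Ctrl peaks met a PDS peak. From 100 to under 150 nt the shares were 73.0% and 49.2%, and from 75 to under 100 nt 86.7% of 15 runs and 47.8%. From 8 to under 75 nt they were 61.1% and 43.5%, with overlapping intervals. No run was under 8 nt long, and undivided peaks under 8 nt were left out. In PDS the shares were 57.0% of 114 runs and 24.1% of 116 undivided peaks at 150 nt or more, and 48.1% and 26.0% from 100 to under 150 nt. They were 34.9% and 26.5% from 75 to under 100 nt, and 29.7% and 24.0% from 8 to under 75 nt. The intervals overlapped in both of these classes.

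**Figure D4:**
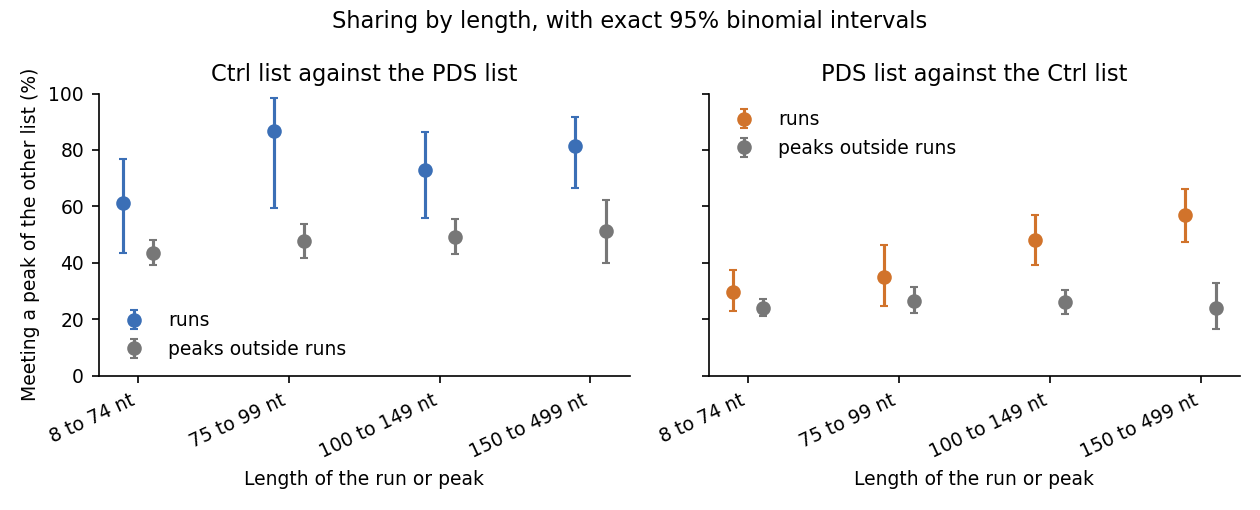
Percentage that met a peak of the other list (y axis) by length class in nt (x axis), for runs (coloured) and undivided peaks (grey) of the Ctrl list (left) and the PDS list (right), with exact 95% binomial intervals. In the class of 150 nt or more the runs lie at 81.4% and 57.0% and the undivided peaks at 51.2% and 24.1%.

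Enrichment moved with sharing too. Shared Ctrl runs had a median top log2 fold of 4.10 against 3.71 for unshared ones, and shared PDS runs 4.33 against 3.81. By top fold under 3.5, 42.9% of 14 runs and 40.4% of 601 peaks in Ctrl, and 17.2% of 87 runs and 15.5% of 917 peaks in PDS were shared. From 3.5 to 4 the shares were 63.3% and 47.4% in Ctrl and 23.6% and 27.3% in PDS, so that PDS runs were not the more often shared there. At 4 to 4.5 they were 89.5% of runs and 65.4% of peaks in Ctrl, and 54.3% and 39.3% in PDS. At 4.5 or more they were 86.7% and 54.7% in Ctrl, and 71.6% and 59.1% in PDS. The intervals of runs and undivided peaks overlapped in all 4 classes of fold in PDS and in the lower 2 in Ctrl. Of 19 Ctrl runs with at least 3 pieces 18 were shared (94.7%), and of 128 such PDS runs 71 were (55.5%). Of runs of 2 pieces, 70.5% of 112 in Ctrl and 37.0% of 365 in PDS were shared. The intervals of both sizes overlapped in Ctrl but not in PDS. These runs were not matched for length, and the median length of PDS runs was 121 nt with 3 pieces and 90 nt with 2.

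To ask whether the same stretch was divided in both conditions, runs and undivided peaks of both lists were matched where exactly 1 region of each list overlapped, which gave 525 regions. In 346 of them (65.9%) both lists had 1 undivided peak. The PDS list alone was divided in 114 (21.7%), the Ctrl list alone in 24 (4.57%) and both lists in 41 (7.81%). Thus 29.5% of matched regions were divided in PDS (exact 95% interval 25.7 to 33.6%) and 12.4% in Ctrl (9.69 to 15.5%), and of the 138 regions divided in 1 list alone, 82.6% were divided in PDS (75.2 to 88.5%). The PDS list had more pieces than the Ctrl list in 130 matched regions, as many in 367 and fewer in 28.

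Where the PDS list alone was divided, its most enriched piece had a median log2 fold of 4.40 against 3.61 for the undivided Ctrl peak, and was the higher in 96 of 114 regions; the PDS run was the longer in 96 (median 109.5 against 77.5 nt). Where the Ctrl list alone was divided, the medians were 4.11 in Ctrl and 4.17 in PDS. The PDS value was the higher in 11 of these 24 regions, and the Ctrl run was the longer in 15 (median 108.5 against 80.5 nt). Where neither was divided, the medians were 3.52 in Ctrl and 3.70 in PDS. In the 41 regions divided in both, the top log2 fold had a median of 4.02 in Ctrl and 4.27 in PDS, the most enriched pieces of both lists overlapped in 28 (68.3%, exact 95% interval 51.9 to 81.9%), and their midpoints lay a median of 17.5 nt apart. The highest of several pieces was compared with 1 value in the undivided regions, and the part this plays in the higher fold was not tested. Likewise, a run joins at least 2 peaks, which favours a greater length than that of 1 undivided peak.

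**Figure D5:**
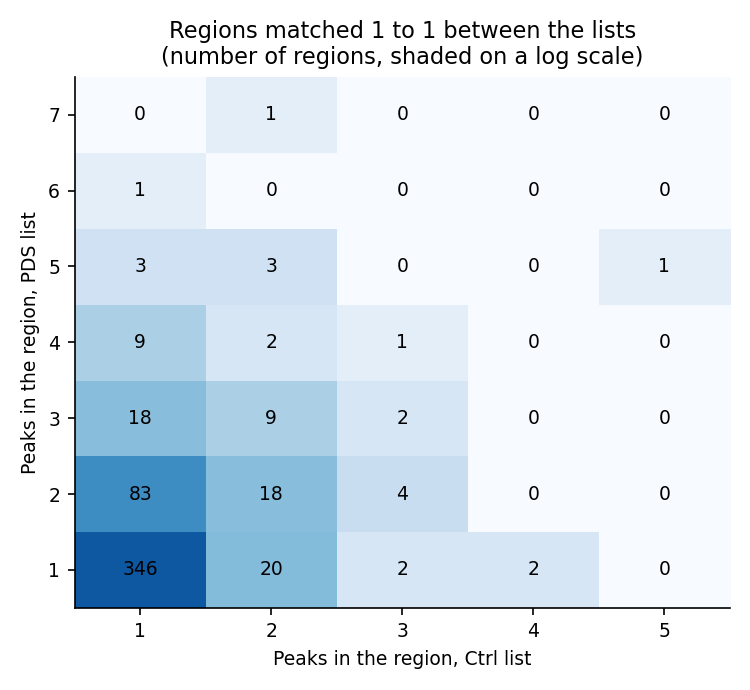
Number of matched regions (printed in each cell, shaded on a log scale) by number of peaks in the Ctrl list (x axis) and in the PDS list (y axis). The cell of 1 peak in each list holds 346 of 525 regions, and 130 regions lie above the diagonal against 28 below it.

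How often borders inside runs recurred in the other list depended on the tolerance. At the same nucleotide, of the 158 borders inside Ctrl runs, 6 (3.80%) were also borders inside a PDS run, 10 (6.33%) coincided with any border of a PDS peak, 96 (60.8%) lay inside a PDS peak and 52 lay outside PDS peaks. Of the 693 borders inside PDS runs, the same 6 (0.866%) were borders inside a Ctrl run, 13 coincided with any Ctrl border, 234 (33.8%) lay inside a Ctrl peak and 446 lay outside. Within 5 nt, 19.6% of Ctrl inner borders had a PDS inner border and 36.1% had any PDS border. For PDS inner borders these shares were 4.47% and 15.4%. No such share is given for outer borders or for borders of peaks outside runs. Whether inner borders recurred more or less often than other borders was thus not tested. The 6 borders shared to the nucleotide lay in 6 different run pairs. On the plus strand of chromosome 16 a piece from 30081151 to 30081156 was the first of the run in both lists, with log2 folds of 4.56 in Ctrl and 3.67 in PDS. On the minus strand of chromosome 7 a 4-nt piece from 5569166 to 5569169 was the last and most enriched in both, with 4.32 and 4.47. The run on the minus strand of chromosome 9 starting at 6645372 in Ctrl and at 6645345 in PDS shared the border behind 6645501. The pieces 5′ of that border had 4.29 in Ctrl and 3.99 and 3.89 in PDS, and those 3′ of it 3.65 and 4.54, so that the higher side differed between the lists. The other 3 lay in the chromosome 3 run and the 37-nt chromosome 8 run named above, and in a Ctrl run at chr8:146015195-146015311 (minus strand).

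Runs were also counted by stretch of the genome. Peaks of both lists no more than 10000 nt apart on 1 strand were linked, which gave 1192 stretches. Ctrl runs lay in 95 of the 667 stretches with Ctrl peaks (14.2%) and PDS runs in 250 of the 950 with PDS peaks (26.3%); 56 stretches held runs of both lists. Of the stretches with at least 2 peaks of the list, which alone can hold a run, 40.1% of 237 had a Ctrl run (exact 95% interval 33.8 to 46.6%) and 54.5% of 459 a PDS run (49.8 to 59.1%). Of the 194 stretches with PDS runs and no Ctrl run, 112 held Ctrl peaks, and of the 39 with Ctrl runs and no PDS run, 21 held PDS peaks. The 10 stretches with most run peaks, picked on that count, held 26.6% of run peaks and 11.5% of all peaks in Ctrl, and 21.8% and 12.4% in PDS. At chrX:153577052-153596260 (minus strand), 53 of 72 PDS peaks and 12 of 43 Ctrl peaks were in runs, 21 and 6 runs. At chr8:144990307-145008211 (minus strand) it was 35 of 48 PDS peaks and 2 of 32 Ctrl peaks. At chr20:17595394-17617322 (minus strand) it was 26 of 33 PDS peaks and 0 of 10 Ctrl peaks, and at chr10:120796722-120809368 (minus strand) it was 24 of 25 PDS peaks, with 1 Ctrl peak and 0 in runs.

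Ctrl peaks were divided in some stretches too. At chr11:75111434-75115765 (plus strand), 8 of 10 Ctrl peaks and 10 of 12 PDS peaks were in runs, 4 runs in each list. At chr16:30077137-30087754 (plus strand) it was 10 of 17 and 17 of 21. At chr14:103986096-103988238 (minus strand) all 8 Ctrl peaks but only 3 of 7 PDS peaks were in runs, the reverse of the general order. By chromosome, the share of PDS peaks in runs was highest on chromosomes 8 (84 of 151, 55.6%) and X (129 of 233, 55.4%), which hold the 2 stretches with most peaks, and lowest on chromosome 13 (2 of 9). In Ctrl it was highest on chromosome 8 too (31 of 103, 30.1%), and chromosomes 13, 18 and 21, with 5, 6 and 5 Ctrl peaks, had 0 in runs. By strand, PDS runs took 43.6% of minus-strand peaks (41.1 to 46.0%) and 37.0% of plus-strand peaks (34.4 to 39.6%), and Ctrl runs 20.6% and 20.0%. The stretches on chromosomes X, 8, 20 and 10 named above, rich in PDS run peaks, all lie on the minus strand. Strand shares without them are not given here.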

How the data were processed

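The submitters' processing notes list cutadapt, UMI-tools, STAR and hg19. How peaks were called and filtered, and how both replicates became 1 list, is not given in the sources used here. The deposited lists have 6 columns without a header. The authors' deposited values per peak were read as −log10 p-value (column 4) and log2 fold (column 5) of IP over input, from the values (every log2 fold is above 3 and 400 stands in for the largest −log10 p) and the usual eCLIP layout. Peaks were kept as deposited; starts were read as counted from 0. Runs were joined in python 3.11.15 with pandas 2.3.3, and intervals are exact (Clopper-Pearson, scipy 1.17.1). The scripts were tested on simulated data. Named runs were, per list, the 10 with most pieces and the 5 longest, most enriched or with the largest step, plus all run pairs tied in shared borders; examples among these are printed. Runs and settings were chosen with earlier results of these data known. The depth of the libraries is unknown. Sequences, genes and quadruplex motifs were not analysed, for want of an hg19 genome.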

Additional observations from a re-analysis of the deposited data

How the results depend on the processing

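Of 65 alternative values, 31 stayed close to the reported one and 34 moved; 0 reversed. Close means within 1.5 times for counts and within the main 95% interval for shares and medians. The matched regions, and some settings without the 7 peak-richest stretches (the top 5 of each list, pooled), were added after seeing the data. Joining peaks over gaps of up to 10 nt put 23.2% of Ctrl and 45.3% of PDS peaks in runs, and up to 50 nt 30.3% and 49.4%. Peaks of at least 10 nt gave 18.0% and 33.5%. With limits of 4 on log2 fold and 5 on −log10 p, 32 Ctrl and 154 PDS runs were left. They held 21.7% of the 313 Ctrl peaks and 46.5% of the 808 PDS peaks within these limits. Cut to 1421 peaks, the number in the Ctrl list, the PDS list held 254 runs and 44.1% by log2 fold, or 286 runs and 50.7% by −log10 p. Both cuts kept the PDS peaks that ranked highest, where the share in runs was larger, and left the Ctrl list whole. Without the 7 stretches the PDS share was 37.7%. With 1 value per run, the highest piece, the median log2 fold was 4.02 in Ctrl and 3.999 in PDS, and 51.9% and 49.7% reached 4 (outside runs, 1 value per peak, 18.4% and 19.4%). Taking the highest of several pieces favours a high value for runs. That setting thus cannot show how far runs and peaks outside runs differ. Without the 7 stretches 30.2% and 32.4% of run peaks reached 4, against 16.1% and 17.7% outside runs, and the PDS median was 3.73 against 3.45. The highest piece was the 5′ one in 10.5% of Ctrl and 36.7% of PDS runs of 3 or more, and in 44.3% and 51.1% with runs of 2 included. Ctrl runs met a PDS peak in 51.9% with the stricter limits in the other list and in 64.1% with the PDS list cut to 1421 peaks, against 20.8% and 30.04% of peaks outside runs. PDS runs met a Ctrl peak in 15.4% and 58.3% in those settings (outside runs 7.02% and 36.1%), and in 32.3% with an overlap of at least 50% (22.9%). Inner borders recurred within 2 nt in 9.49% of Ctrl and 2.16% of PDS, and within 5 nt in 19.6% and 4.47%, with no share of other borders beside them. Of matched regions divided in 1 list, 73.8% (by log2 fold) or 71.4% (by −log10 p) were divided in PDS once that list was cut to 1421 peaks. Stricter or shorter lists hold fewer peaks; other causes of these moves were not tested. No paired analysis was possible because each peak has 1 value from both replicates combined, so no replicate could be left out either. The planned gene and sequence context was not run. Unknown depth limits any statement on peaks or borders missing from a list.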
